A study of Mus musculus with 20 samples.

Results

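The cell composition of mouse kidneys taken 3 d after short bilateral renal ischemia was compared with that of control kidneys, as the share that each of 18 cell clusters took in each single-cell RNA-seq library. Cells were chosen by the treatment label and day deposited for each cell. The label IRI short, day 3, held 7053 of 113579 cells in 2 of 18 libraries, with 2967 cells in IRF3 and 4086 cells in IRF11. The control label held 37872 cells in 6 libraries (Scl and norm1 to norm5) of 2272 to 14320 cells. According to the methods, the mice were male C57BL/6J animals of 10 to 12 weeks, and the IRI short animals had both renal pedicles clamped for 23 min. The labels call the other group Control and name no operation for it, so whether its mice had sham surgery is not known from them. Each library was taken as 1 mouse, and a p-value of a comparison between groups measures the spread between these libraries.

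Ischemia-reperfusion injury (IRI) damages the proximal tubule first, the segment that reabsorbs most of the filtrate and depends on oxidative metabolism. Granulocytes, monocytes, macrophages and lymphocytes enter the injured kidney from the blood, clear debris and release cytokines while surviving tubule cells divide. The question addressed here is how the make-up of the kidney looks on day 3, between the early injury and the later repair or fibrosis.

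The 18 clusters carry the authors' names, and their marker genes could not be checked because the tables used here hold no expression values. Shares add up to 100% in each library. A lower share therefore cannot be told apart from more cells of other types, and a cell that changes its expression can move to another cluster name.

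Across compartments the 2 libraries on day 3 held mostly immune cells, whereas control libraries held mostly tubule cells. Immune cells made up 53.2% of the cells in IRF3 and 62.8% in IRF11. In control libraries the immune fraction had a lowest value of 6.11%, a median of 10.4% and a highest value of 17.8%. Both libraries lay above all control libraries, and the means were 58.0% ± 6.74 (SD, n = 2) and 10.8% ± 4.83 (SD, n = 6).

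Myeloid cells, which phagocytose and drive early inflammation, took 30.5% of IRF3 and 43.5% of IRF11 against 1.11 to 3.06% in control, a 17.4-fold higher mean. Lymphoid cells took 22.7% of IRF3 and 19.3% of IRF11 against 3.85 to 14.8%, a 2.41-fold higher mean. Neither range touched that of the control libraries. The proximal tubule (PT) moved the other way, with 14.7% of the cells in IRF3 and 4.63% in IRF11 against 30.3 to 68.1% in control, a 5.14-fold lower mean. Endothelial and stromal cells, which form vessels and interstitium, took 9.44% and 11.7% against 2.10 to 4.93%. Other epithelial cells, the tubule segments beyond the PT and the podocytes, took 22.7% and 20.9% against 23.3 to 49.8%.

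With 2 against 6 libraries there are 28 ways to assign the libraries, so the smallest p of a two-sided exact permutation test is 0.0357. Immune, myeloid, lymphoid, PT and endothelial and stromal fractions all reached it, with an adjusted p of 0.0429 over the 6 fractions. The fraction of other epithelial cells differed by −14.2 percentage points with an exact permutation p of 0.107, although both values lay just below every control library. The design can pass the threshold only if at least 5 of the 6 fractions reach the smallest p, so any change that removed 1 of them ended all calls. This happened on the logit scale, where the adjusted p was 0.0536 or more, although on that scale too each of the 5 fractions differed in the same direction.

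**Figure D1:**
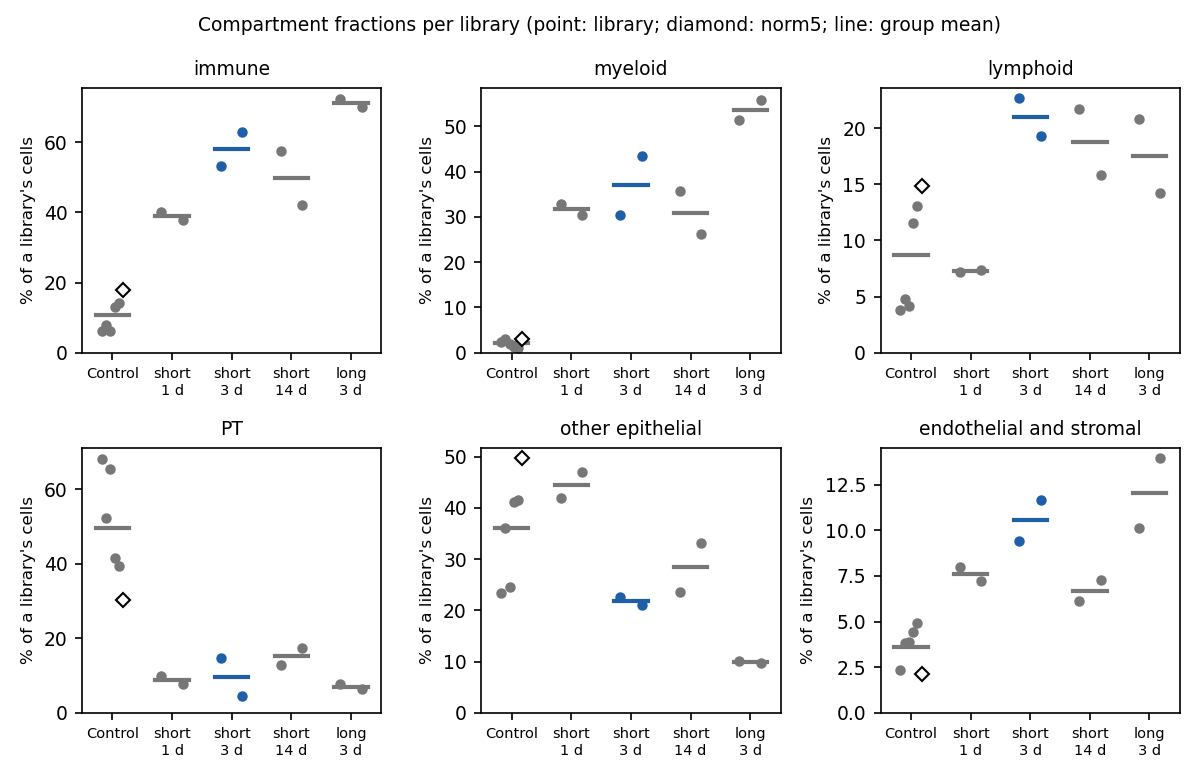
Percent of a library's cells (vertical axes, from 0) in 6 compartments, for control (6 libraries), IRI short at 1, 3 and 14 d and IRI long at 3 d (2 libraries each); points are libraries, the diamond is the control library norm5 and lines are group means. On day 3 after short ischemia (blue) the immune fraction was 53.2 and 62.8% against 6.11 to 17.8% in control, and the PT fraction was 14.7 and 4.63% against 30.3 to 68.1%.

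The control libraries were not alike in their cell barcodes. Scl and norm1 to norm4 shared 461 barcodes between pairs, as many as a set of 746058 barcodes would give. The control library norm5 and all IRI libraries shared 871, as many as a set of 3549341 barcodes would give, while the labels name the same 10X kit version for every library. IRF3 and IRF11 shared 62 and 88 barcodes with the other libraries of their own set and 1 and 3 with the smaller set. They shared 3 with each other, and none of these 3 lay in the same cluster in both libraries. The smaller set holds control libraries alone, so in a comparison within a set norm5 is the one control, and that value is given where it changes a result.

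Against norm5 alone the difference on day 3 was 40.2 percentage points for immune cells (norm5 17.8%), −20.7 for the PT (norm5 30.3%) and 6.14 for lymphoid cells (norm5 14.8%). For endothelial and stromal cells it was 8.46 points (norm5 2.10%). The library norm5 had the highest immune and lymphoid and the lowest PT fraction of all control libraries. In these compartments the difference against norm5 was thus smaller than against the control mean for immune, lymphoid and PT cells, and it kept its direction.

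The control libraries norm3 and norm4 were almost the same in composition. Their cells over the 18 clusters gave a chi-square of 27.9 (16 degrees of freedom, p = 0.0324), against 195 to 3911 for the other 20 pairs of replicates. In the authors' second annotation of the same cells their p was 0.186. They shared 9 barcodes, so they hold different cells, and they were kept as 2 libraries. Different cells do not show different mice, and whether these 2 libraries come from 2 mice was not tested. Counting them as 1, a choice made after seeing the data, left the means almost where they were, with differences of 47.6 points for immune cells and −41.6 for the PT. With 2 against 5 libraries the exact permutation test needs all 6 fractions at its smallest p to pass, and each of the 5 fractions had an adjusted p of 0.0571.

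Each cluster's share was then compared on the natural logit scale with limma, which borrows strength across clusters and libraries. The logit is the natural log of the odds that a cell lies in the cluster, and a difference above 0 is a higher share on day 3. Of 18 clusters, 13 (72.2%) differed between IRI short at 3 d and control at an adjusted p under 0.05. Of these, 10 (55.6%) were higher and 3 (16.7%) lower on day 3. Since all clusters are members here, these shares are also the background. In 9 clusters (50.0%) both libraries lay above every control library, in 3 (16.7%) both lay below, and in 6 the ranges overlapped. When the barcode set was added to the limma model, so that the comparison rested on norm5 among the controls, 11 of 18 clusters passed (61.1%). PT S3, IC and T cell_2 were lost and LOH was gained.

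**Figure D2:**
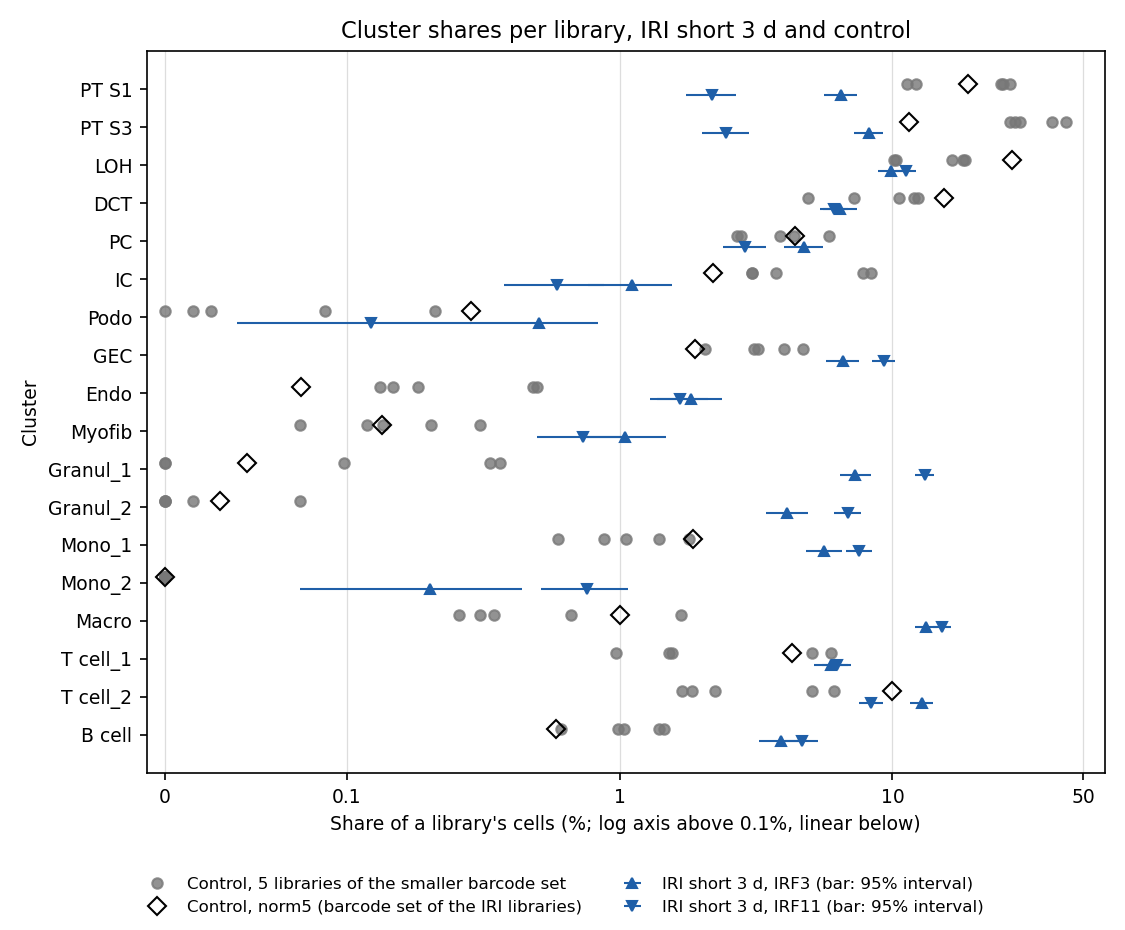
Share of a library's cells in each of the 18 clusters (horizontal axis in percent, logarithmic above 0.1% and linear below), with control libraries in grey, norm5 as an open diamond, and IRF3 and IRF11 as blue triangles with 95% Clopper-Pearson intervals. The 5 myeloid clusters, B cell, GEC, Endo and Myofib lie to the right of all control libraries on day 3, and PT S1, PT S3 and IC to their left.

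Granulocytes, the short-lived phagocytes that arrive first at injured tissue, showed the largest differences. Granul_1 held 7.31% of IRF3 and 13.1% of IRF11. In control it ran from 0 to 0.363% with a median of 0.0718%. Its mean share was 72.8-fold higher on day 3, and the logit difference was 4.96 (SE 0.66, limma adjusted p = 2.5e-06). The control mean rests on 79 cells, 48 of them in Scl and 24 in norm2, so the size of this ratio is imprecise. Granul_2 held 4.11% of IRF3 and 6.85% of IRF11, against 6 cells in all 37872 control cells. Its logit difference was 5.62 (SE 0.59, limma adjusted p = 3.06e-07), the largest of the 18. Both clusters were scarce in every control library, norm5 included, which had 0.0450% in Granul_1 and 0.0300% in Granul_2.

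Macrophages, which clear dead cells and can be resident or derived from blood monocytes, formed the largest single cluster on day 3. Macro held 13.3% of IRF3 and 15.2% of IRF11, against a lowest share of 0.258%, a median of 0.505% and a highest share of 1.67% in control. The mean was 20.1-fold higher and the logit difference was 3.36 (SE 0.41, limma adjusted p = 1.34e-06). The 2 libraries were close to each other here, and their counting intervals overlapped (12.1 to 14.6% and 14.1 to 16.3%).

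Monocytes circulate in blood and give rise to macrophages in tissue. Mono_1 held 5.63% of IRF3 and 7.56% of IRF11 against 0.592 to 1.86% in control, a logit difference of 1.77 (SE 0.35, limma adjusted p = 0.000233). With only cells of the same compartment in both annotations, which left out most Mono_1 cells, the difference was 3.41. Mono_2 held 6 cells in IRF3 (0.202%) and 31 cells in IRF11 (0.759%), and no cell in control. A count of 0 among 37872 cells allows a share of up to 0.00792%, a floor of 3 counts over the group. The observed share was 25.5 times this floor in IRF3 and 95.8 times in IRF11. These ratios leave out the counting error of the 6 and 31 cells, so they are not lower bounds. The control library norm5 alone, with 0 of 6666 cells, allows up to 0.0450%. The limma difference of Mono_2 (3.78) depends on the 0.5 cells added before the logit. It was 1.12 (limma adjusted p = 0.173) when only cells with the same compartment in both annotations of the study were kept, since the second annotation gave 94.6% of the Mono_2 cells of day 3 the name Fibro.

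Within the immune cells the balance of myeloid and lymphoid cells also differed, but not after adjustment. Myeloid cells were 57.4% of immune cells in IRF3 and 69.3% in IRF11, against 7.81 to 39.2% in control. Granulocytes were 37.4% and 45.9% of myeloid cells, against 0 to 19.7%. Both fractions lay above all control libraries, with an exact permutation p of 0.0357 and an adjusted p of 0.107 over 9 such fractions. Macro made up 43.5% and 34.9% of myeloid cells, inside the control range of 10.9 to 54.5%. Of the 9 fractions within compartments, 3 had an unadjusted exact permutation p under 0.05 and none had an adjusted p under it.

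Among lymphoid clusters B cell, the cells that make antibodies, was the one above all control libraries. It held 3.91% of IRF3 and 4.65% of IRF11, against a lowest share of 0.585%, a median of 1.01% and a highest share of 1.45% in control. The mean was 4.24-fold higher and the logit difference was 1.53 (SE 0.34, limma adjusted p = 0.000433). Allowing for the barcode set the difference was larger, at 2.01 (limma adjusted p = 0.00165). That comparison rests on norm5 among the controls, which had their lowest share (0.585%). It cannot tell the barcode set apart from norm5 itself.

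T cells recognise antigens presented by other cells, and they were named in 2 clusters. T cell_1 held 5.97% of IRF3 and 6.24% of IRF11, and the control library norm4 lay level with IRF3 (control range 0.968 to 5.97%). Its logit difference of 0.89 (95% confidence interval −0.04 to 1.82) missed the threshold (limma adjusted p = 0.0743). It passed without norm3 (1.03, limma adjusted p = 0.0415), without norm4 (1.06, 0.0281), without norm5 (0.99, 0.0490) or with norm3 and norm4 counted as 1 library (1.04, 0.0350). With the barcode set as a term, T cell_1 differed by only 0.38 (limma adjusted p = 0.688). With only the 2 groups compared it missed the threshold too (0.89, limma adjusted p = 0.140).

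T cell_2 held 12.8% of IRF3 and 8.37% of IRF11, against a lowest share of 1.69%, a median of 3.65% and a highest share of 9.98% in control. The highest control value belonged to norm5 and lay between the 2 libraries of day 3. The logit difference of 1.12 (SE 0.47, limma adjusted p = 0.0377) was the weakest of the 13 calls. It was lost without Scl (0.97, limma adjusted p = 0.0593), norm1 (0.98, 0.0669), norm2 (1.02, 0.0625), IRF3 (0.88, 0.230) or IRF11 (1.36, 0.0635). Allowing for the barcode set, its difference was 0.04 (limma adjusted p = 0.943).

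The names of the T cell_2 cells also differed between the authors' annotations. In the second annotation, 55.3% of the T cell_2 cells of IRF3 and 44.2% of those of IRF11 were named PT. In control libraries this share was 0.413% in Scl and 22.6 to 29.1% in the other 5. Cells named T cell were 25.0% and 35.7% of the cluster on day 3, against 32.5 to 90.5% in control. Seen from the other side, T cell_2 supplied 68.9% of the 524 cells of day 3 that the second annotation called PT, against 5.12% of the 6275 such control cells and 18.8% of the 847 of norm5. The share of T cell_2 cells renamed PT was thus above all control libraries in both libraries. In other injured kidneys it lay at 43.8 and 55.5% in IRI short at 1 d, 41.5 and 52.7% at 14 d and 41.9 and 47.1% in IRI long at 3 d.

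**Figure D3:**
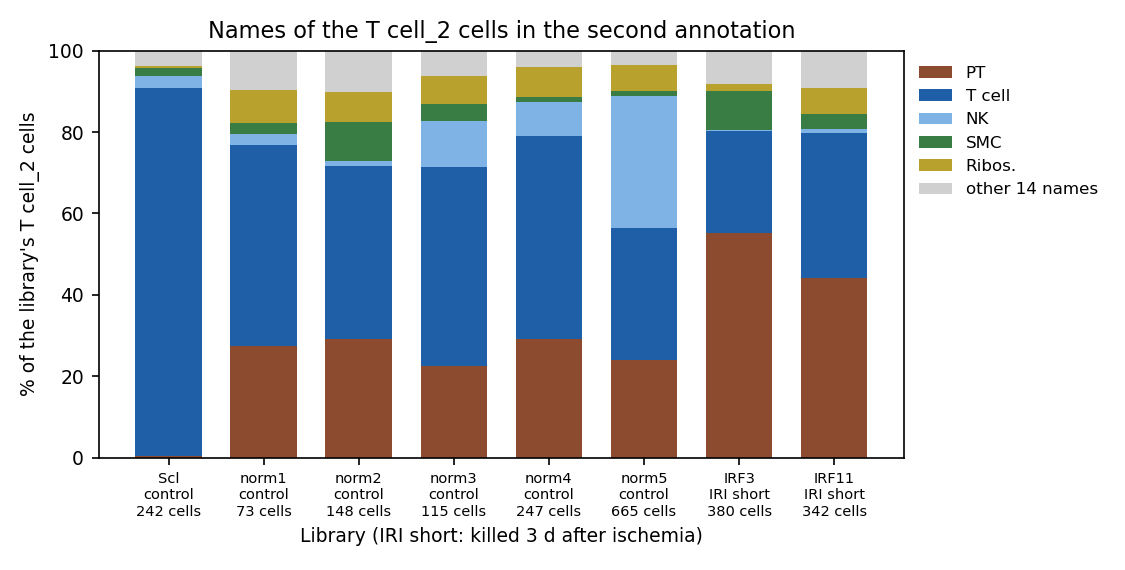
Names that the T cell_2 cells of each control and day 3 library carry in the second annotation, in percent of the library's T cell_2 cells (bars sum to 100; cell numbers under each bar). The PT part is 55.3% in IRF3 and 44.2% in IRF11, and 0.413 to 29.1% in control.

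When only cells of the same compartment in both annotations were kept, an alternative chosen after seeing the data, T cell_2 had a logit difference of 0.52 (limma adjusted p = 0.322). Lymphoid cells as a whole then differed by 8.58 percentage points (exact permutation test, adjusted p = 0.0429). In the second annotation itself, lymphoid cells differed by 6.13 percentage points (exact permutation test, adjusted p = 0.143), T cell by 0.69 on the logit scale (limma adjusted p = 0.120) and NK, the natural killer cells, by 0.51 (limma adjusted p = 0.429), whereas B cell differed by 1.56 (limma adjusted p = 0.000213).

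Over all cells, tubule clusters split into those called lower and those that missed the threshold. PT S1, the convoluted part of the proximal tubule, held 6.47% of IRF3 and 2.18% of IRF11. The control libraries had a lowest share of 11.3%, a median of 21.9% and a highest share of 27.0%. The mean was 4.61-fold lower and the logit difference was −1.79 (SE 0.38, limma adjusted p = 0.000359).

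PT S3, the straight part that reaches into the outer medulla, held 8.19% of IRF3 and 2.45% of IRF11, against 11.5 to 43.2% in control with a median of 28.7%. The mean was 5.57-fold lower and the logit difference was −2.12 (SE 0.43, limma adjusted p = 0.000233). Its lowest control value was that of norm5. With the barcode set as a term PT S3 differed by −1.01, short of the threshold (limma adjusted p = 0.106), while PT S1 stayed lower at −1.77 (limma adjusted p = 0.0137). PT S1 made up 44.1% of the PT cells in IRF3 and 47.1% in IRF11, within the control range of 28.7 to 62.1%, so the balance of the 2 segments was not detectably different (exact permutation p = 0.679). The day 3 mean of 45.6% lay above the control mean of 41.0% but below the 62.1% of norm5, so the direction against norm5 turned.

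In the collecting duct, intercalated cells (IC), which secrete acid or base, and principal cells (PC), which take up water and sodium, gave different values. IC held 1.11% of IRF3 and 0.587% of IRF11, against a lowest share of 2.19%, a median of 3.40% and a highest share of 8.31% in control. Its mean was 5.52-fold lower and the logit difference was −1.66 (SE 0.41, limma adjusted p = 0.00122), and with the barcode set as a term it was −0.996 (limma adjusted p = 0.135). PC held 4.75% and 2.89%, within the control range of 2.68 to 5.85%, with a logit difference of −0.04 (95% confidence interval −0.76 to 0.68).

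IC were 19.0% of the IC and PC cells in IRF3 and 16.9% in IRF11, against 33.2 to 74.9% in control. The ranges did not overlap, but the exact permutation p was 0.0714 and the adjusted p 0.161. The share of IC within this pair of clusters does not depend on how many immune cells a library holds.

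The loop of Henle cluster (LOH), which dilutes the tubule fluid, held 9.88% of IRF3 and 11.2% of IRF11. The distal convoluted tubule (DCT), which fine-tunes salt uptake, held 6.44% and 6.12%. Control libraries ran from 10.1 to 27.5% for LOH and from 4.90 to 15.4% for DCT, so the ranges overlapped. The logit differences were −0.48 (95% confidence interval −1.23 to 0.27) and −0.49 (−1.23 to 0.26), each with a limma adjusted p of 0.205. LOH was lower with the barcode set as a term (−1.17, limma adjusted p = 0.0457), since norm5 had the highest control share.

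Podocytes (Podo), the cells of the glomerular filter, were 15 cells in IRF3 (0.506%) and 5 cells in IRF11 (0.122%), against 0 to 0.285% in control. Their logit difference of 1.41 (95% confidence interval −0.08 to 2.91) missed the threshold (limma adjusted p = 0.0743). It passed without Scl (1.65, limma adjusted p = 0.0351) or norm5 (1.72, 0.0274), and allowing for the barcode set it was −0.10. Counting intervals of 0.283 to 0.832% and 0.0397 to 0.285% show how little these cell numbers can tell.

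Vascular and stromal clusters were all higher on day 3. Glomerular endothelial cells (GEC) held 6.57% of IRF3 and 9.28% of IRF11, against a lowest share of 1.89%, a median of 3.17% and a highest share of 4.71% in control. Their logit difference was 1.00 (SE 0.32, limma adjusted p = 0.00789), and it was lost without IRF11 (0.82, limma adjusted p = 0.0975). Endo, the other endothelial cells, held 1.82% and 1.66% against 0.0750 to 0.499%, a 6.89-fold higher mean (logit difference 2.12, SE 0.43, limma adjusted p = 0.000233).

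Myofibroblasts (Myofib), which lay down matrix in fibrosis, held 31 cells of IRF3 (1.04%) and 30 cells of IRF11 (0.734%), against 0.0740 to 0.308% in control. The mean was 5.48-fold higher and the logit difference was 1.74 (SE 0.35, limma adjusted p = 0.000233). In these 3 clusters both libraries lay above all control libraries and differences allowing for the barcode set were no smaller, at 1.48 for GEC, 3.07 for Endo and 1.84 for Myofib. These 3 differences rest on norm5 among the controls, which held 5 Endo and 9 Myofib cells. Its shares of GEC and Endo were the lowest of all control libraries. Among the endothelial cells GEC made up 78.3% in IRF3 and 84.8% in IRF11, below the 86.6 to 97.0% of control (exact permutation p = 0.0357, adjusted p = 0.107).

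**Figure D4:**
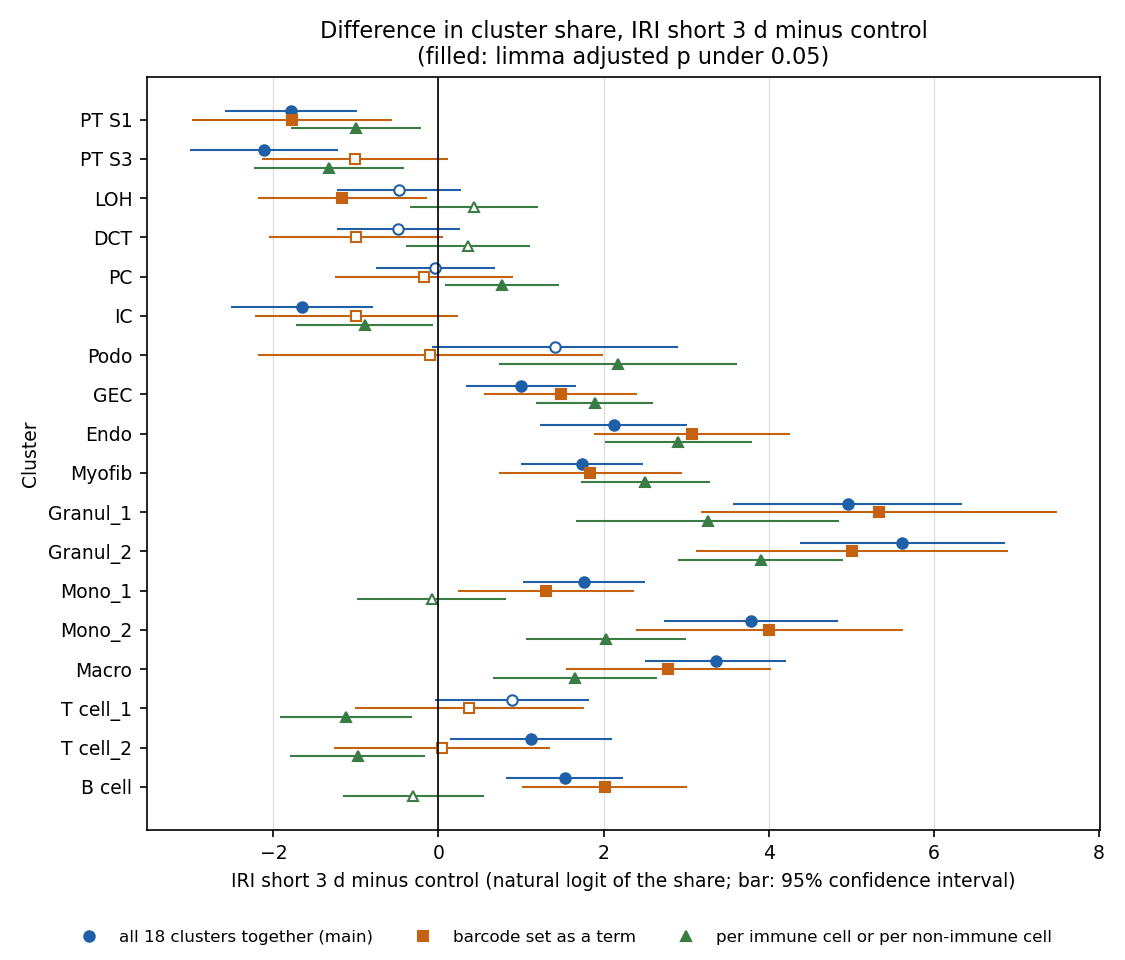
Difference in cluster share between IRI short at 3 d and control on the natural logit scale (horizontal axis), with 95% confidence intervals as bars and filled symbols for a limma adjusted p under 0.05, for all cells (circles), with the barcode set as a term (squares) and with the denominator limited to immune cells for immune clusters and to non-immune cells for the rest (triangles). Granul_1, Granul_2, Mono_2, Macro, GEC, Endo and Myofib are higher and PT S1 is lower in all 3, with filled symbols. PT S3 and IC are lower in all 3 but open with the barcode set as a term. LOH, DCT, PC, Podo, Mono_1, T cell_1, T cell_2 and B cell change sign between them.

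Immune cells filled over 50% of both libraries, and single clusters changed with the denominator. With immune clusters taken per immune cell and all remaining clusters per non-immune cell, 14 of 18 clusters (77.8%) passed, 9 higher and 5 lower, against 10 higher and 3 lower over all cells. The median of the 18 logit differences was 0.60, against 1.27 over all cells. Per immune cell T cell_1 (−1.12, limma adjusted p = 0.0153) and T cell_2 (−0.98, limma adjusted p = 0.0320) were lower on day 3, the opposite sign to their shares of all cells. B cell (−0.30) and Mono_1 (−0.0806, limma adjusted p = 0.854) did not pass. Granul_1 (3.26), Granul_2 (3.90), Macro (1.65) and Mono_2 (2.03) were higher among immune cells too, each with a limma adjusted p under 0.05.

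Per non-immune cell PT S1 (−0.999, limma adjusted p = 0.0266), PT S3 (−1.33, limma adjusted p = 0.0128) and IC (−0.89, limma adjusted p = 0.0461) were still lower. PC (0.77, limma adjusted p = 0.0441) and Podo (2.17, limma adjusted p = 0.0119) were higher, and LOH (0.43) and DCT (0.35) had a positive difference that did not pass. The PT made up 31.3% of non-immune cells in IRF3 and 12.4% in IRF11, against 36.9 to 72.6% in control (exact permutation p = 0.0357). Endothelial and stromal cells made up 20.2% and 31.3% of non-immune cells, against 2.52 to 5.75%. Other epithelial cells made up 48.5% and 56.2%, inside the control range of 24.9 to 60.5%.

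The centred log-ratio, which sets each cluster against the geometric mean of all 18, moved the median difference to −0.03. It gave 10 clusters, 4 higher (Granul_1, Granul_2, Mono_2 and Macro) and 6 lower (PT S1, PT S3, LOH, DCT, PC and IC). On this scale GEC, T cell_1 and T cell_2 had a difference below 0 that did not pass. Relative to the other clusters, then, only these 4 myeloid clusters passed as higher under every denominator used.

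**Figure D5:**
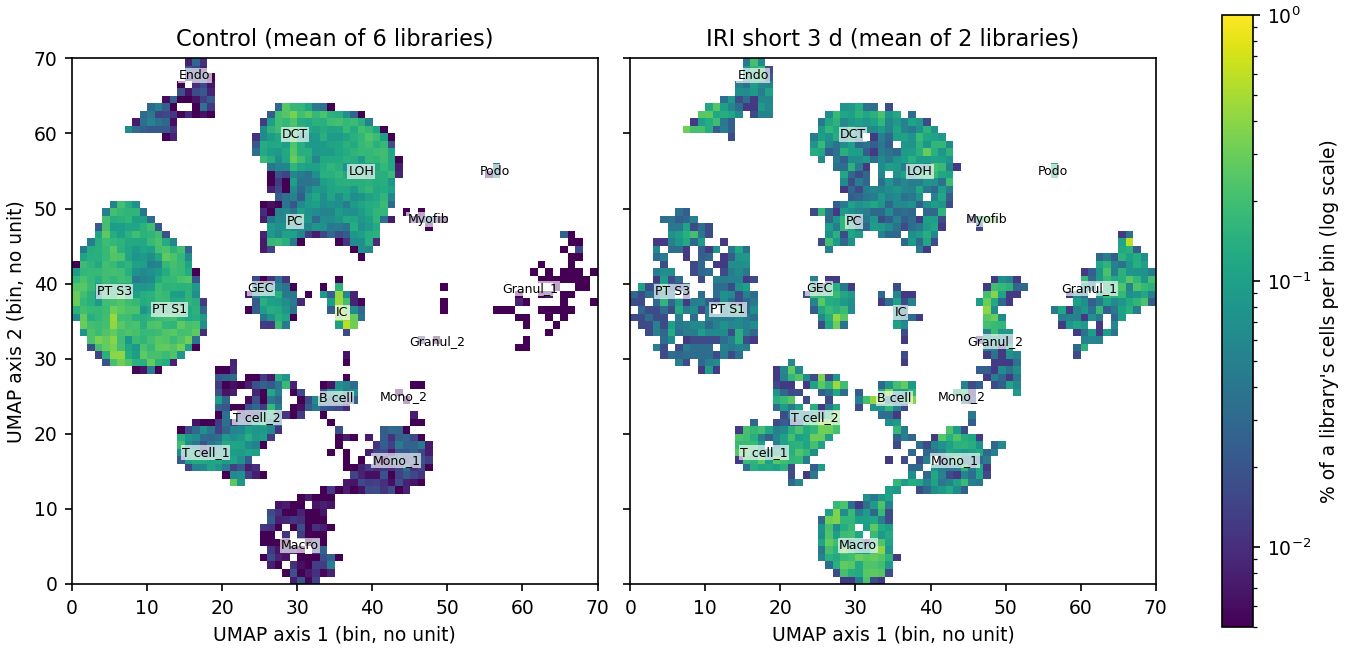
Mean percent of a library's cells in each bin of the first annotation's UMAP (axes in bins without unit, colour on a log scale), for 6 control libraries and the 2 IRI short libraries of day 3; each cluster name stands at its cluster's median position. The areas of Granul_1, Granul_2 and Macro, nearly empty in control, are filled on day 3, and the PT area is thinned but still covered.

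IRF3 and IRF11 were not copies of each other. The 95% counting intervals of their shares lay apart for 9 of 18 clusters. PT S1, PT S3, PC and T cell_2 were higher in IRF3, and GEC, Granul_1, Granul_2, Mono_1 and Mono_2 were higher in IRF11. Moving 18.03% of the cells of one library to another cluster name would give the composition of the other. This distance was 3.74 to 39.9% between control libraries and 43.3 to 68.2% between a library of day 3 and a control library.

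The nearest library to both IRF3 (11.8%) and IRF11 (16.8%) was IRF8, which is IRI short at 14 d, and for IRF11 a library of IRI long at 3 d was almost as near (16.9%). Distances to libraries of IRI short at 14 d were 11.8 to 25.7%, to IRI long at 3 d 16.9 to 29.8%, and to IRI short at 1 d 27.5 to 32.7%. The composition on day 3 was thus closer to that at 14 d than to that at 1 d, a description over few libraries with no test.

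Within IRI short, immune cells made up a mean of 39.0% at 1 d, 58.0% at 3 d and 49.7% at 14 d, and lymphoid cells 7.28, 21.0 and 18.8%. PT cells made up 8.90, 9.64 and 15.2%. Against IRI short at 1 d limma called none of the 18 clusters (0.0%), and 2 had an unadjusted p under 0.05. These were LOH, with 27.0 and 29.7% at 1 d (logit difference at 3 d −1.21, SE 0.44, limma adjusted p = 0.231), and T cell_1, with 1.67 and 2.10% at 1 d (1.23, SE 0.54, limma adjusted p = 0.294). In both clusters the 2 libraries of each day lay apart, yet with 2 libraries a day the differences were not detectable after adjustment. Macro held 6.45 and 7.08% at 1 d and 13.3 and 15.2% at 3 d (0.83, 95% confidence interval −0.22 to 1.88).

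Against IRI short at 14 d limma called 1 of 18 clusters (5.56%), Myofib, which held 0.0916 and 0.155% at 14 d and 1.04 and 0.734% at 3 d. The logit difference was 1.96 (SE 0.43, limma adjusted p = 0.00442), and it was lost without IRF10 (1.69, limma adjusted p = 0.112). Mono_2 held 0.0641 and 0.0664% at 14 d (1.73, SE 0.61, limma adjusted p = 0.0999). All other clusters had an interval that included 0, such as Granul_1 (0.15, −1.55 to 1.84) and PT S1 (−0.44, −1.42 to 0.54).

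Against IRI long at 3 d, after 30 min of ischemia, limma called none of the 18 clusters (0.0%), and 3 had an unadjusted p under 0.05. DCT held 1.60 and 2.11% after long ischemia (logit difference of short minus long 1.27, SE 0.43, limma adjusted p = 0.159). LOH held 4.22 and 4.36% (0.96, SE 0.44, limma adjusted p = 0.233), and Mono_1 12.1 and 20.8% (−1.003, SE 0.43, limma adjusted p = 0.233). In each of these 3 clusters the 2 libraries of one ischemia time lay apart from those of the other. PT S1 had a difference of 0.00 with an interval of −0.98 to 0.99, which leaves room for a change in either direction.

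The second annotation of the same cells has 19 clusters, of which 12 (63.2%) differed between IRI short at 3 d and control, 7 higher and 5 lower. Granul_1 and Granul_2 were carried over almost whole as Neutro_1 (98.9% of the day 3 cells) and Neutro_2 (99.0%), which differed by 4.42 and 5.12 on the logit scale. Macro kept its name for 92.1% of its cells and differed by 3.32. By contrast, 88.0% of Mono_1 and 94.6% of Mono_2 were named Fibro, so that 87.7% of the Fibro cells of day 3, a cluster higher by 1.80, were Mono_1 cells in the first annotation. The same renaming was seen in pooled control cells, where 93.2% of Mono_1 were named Fibro and 92.8% of Fibro cells were Mono_1 cells. Of the Myofib cells of day 3, 68.9% were named SMC, the smooth muscle cells, against 28.3% of 53 pooled control cells and 9 of 9 in norm5, so that the direction against norm5 turned.

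SMC held 4.85% of IRF3 and 2.03% of IRF11 in that annotation, against 0.222 to 0.765% in control (2.11, limma adjusted p = 0.000113) and 0.390 to 0.404% at 1 d (2.09, limma adjusted p = 0.00498, the 1 call of 19 clusters or 5.26%). On day 3, 33.9% of the SMC cells came from Macro, 21.6% from T cell_2 and 18.5% from Myofib. The cluster thus held more cells named macrophage in the first annotation than myofibroblast.

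Tubule names moved as well. Of the LOH cells on day 3, 58.5% kept that name and 30.2% became the cluster "DCT1, DCT2", against 33.2 and 50.0% of pooled control cells and 44.3 and 35.0% in norm5. PCT and PST, the convoluted and straight proximal tubule of the second annotation, differed by −1.64 (limma adjusted p = 0.00551) and −2.12 (limma adjusted p = 7.11e-05), and its cluster PT by −0.84 (limma adjusted p = 0.0432). The cluster "DCT1, DCT2" was lower too, by −0.85 (limma adjusted p = 0.00975). LOH of the second annotation differed by 0.23 (limma adjusted p = 0.572), the opposite sign to LOH of the first. CD-IC, which took 93.0% of the IC cells, differed by −1.50 (limma adjusted p = 0.00225). The share of cells with the same compartment in both annotations was 80.4% in IRF3 and 82.6% in IRF11, and 88.2 to 96.1% in control libraries. In the other IRI libraries it was 67.4 to 85.2%, so lower agreement of names was not particular to day 3. With only cells of the same compartment in both annotations kept, 11 of 18 clusters were called, and Mono_2 and T cell_2 were lost. Whether the agreement of names itself played a part in the differences was not tested.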

How the data were processed

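Single-cell RNA-seq libraries of mouse kidney (10X Genomics 3′ kit per the labels) were analysed from the per-cell tables the authors deposited, which give a cluster name, a treatment label with its day, and 2 UMAP coordinates, a score without unit. Per the labels the authors used Cell Ranger and Seurat (builds GRCm38 and mm10). The methods add filters on gene number and mitochondrial percentage, removal of doublets, integration with LIGER and naming of clusters by hand, and state that results without correction for ambient RNA were used. A first annotation covers 113579 cells in 18 clusters, and the second names the same cells in 19 clusters, after the study integrated them anew with 2 libraries of inhibitor-treated mice. No UMI counts were used, so cells per library stand for depth, and the Clopper-Pearson 95% intervals and the floor of 3 counts cover counting error only. Libraries were taken from the prefix of the cell names and grouped by the deposited label of their cells.

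Each cluster's share per library, as a natural logit with 0.5 cells added, was fitted with limma 3.58.1 (R 4.3.3) with 7 group means over 18 libraries and adjusted over 18 clusters by the Benjamini-Hochberg method at 0.05. Fractions of 6 compartments and 9 fractions within compartments were tested by exact permutation of libraries, two-sided, adjusted within each family. All clusters were named in the text by rule. Clusters of the second annotation were named where they took 10% or more of a first cluster's cells on day 3, or had no counterpart there. The clusters, compartments and comparisons were chosen with earlier results of these data known. The limma and permutation p-values measure the spread between libraries. The chi-square test between 2 replicate libraries takes cells as units, so its p-value reflects counting error within libraries. The fits were tested on simulated data in which each cluster was drawn on its own. That test does not cover shares that depend on each other, as those of real libraries do. Alternatives were other scales (centred log-ratio, arcsine square root), other denominators, 1 cell added, a filter of 10 cells in 2 libraries, only the 2 groups compared, the barcode set as a term, norm5 alone, pooled cells, the second annotation and leaving out each library. Tables and figures were made in Python 3.11.15 (pandas 2.3.3, numpy 2.4.6, scipy 1.17.1 and matplotlib 3.10.9). Gene expression, bulk RNA-seq and inhibitor-treated libraries were not analysed here.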

Additional observations from a re-analysis of the deposited data

Results flagged for a closer look

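Myofib in IRI short at 3 d against IRI short at 14 d was singled out because the difference between the 2 time points itself passed the threshold. The logit difference was 1.96 (SE 0.43, limma adjusted p = 0.00442), with 31 and 30 cells in the 2 libraries of 3 d (1.04 and 0.734%) and shares of 0.0916 and 0.155% at 14 d, each of the former above each of the latter. Over its alternatives the limma adjusted p ran from 0.000971, with norm3 and norm4 counted as 1 library, to 0.112 without IRF10. On the arcsine scale it was 0.0548. In the 32 sets of control values tested, 6 libraries each, no library stood apart from the others by Dixon's test, where about 5% would by chance.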

How the results depend on the processing

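Of the 13 clusters called against control, the alternatives kept PT S1, Granul_1, Granul_2 and Macro past the threshold in the same direction in all 17 alternative fits of the first annotation. The number called ran from 10 (centred log-ratio) to 15 (without norm5), and from 11 to 15 when each library was left out in turn. Only the 2 groups compared gave 12 (T cell_2 lost, limma adjusted p = 0.0725), cells of the same compartment in both annotations 11 (Mono_2, 1.12, limma adjusted p = 0.173, and T cell_2 lost), and norm3 and norm4 counted as 1 library 14.

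The sign changed for LOH (0.43), DCT (0.35), PC (0.77), Mono_1 (−0.0806), T cell_1 (−1.12), T cell_2 (−0.98) and B cell (−0.30) with immune and other clusters apart, for GEC (−0.31), T cell_1 (−0.41) and T cell_2 (−0.21) on the centred log-ratio, for Podo (−0.10) with the barcode set as a term, and for PC without norm1 (0.05), without IRF11 (0.22) and with cells of the same compartment (0.0755). On the centred log-ratio Endo (0.84), Myofib (0.46), Mono_1 (0.44) and B cell (0.23) no longer passed. These changes of sign follow from the change of denominator or of the libraries and cells compared.

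Against IRI short at 1 d, where no cluster was called, the arcsine gave 2 (LOH and Macro), only the 2 groups compared 3 (LOH, T cell_1 and T cell_2) and the second annotation 1 (SMC). Against IRI short at 14 d, where 1 was called, the arcsine and the second annotation gave 0, only the 2 groups compared 3 (with Podo and Mono_2), and leaving out libraries 0 to 2 (with Mono_2 without IRF3). Against IRI long at 3 d the arcsine gave 1 (Mono_1), and leaving out libraries 0.

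For immune, myeloid, lymphoid, PT and endothelial and stromal fractions the adjusted exact permutation p missed the threshold under several settings. The differences were 2.52, 3.35, 1.17, −2.37 and 1.196 on the logit scale, 35.1, 29.0, 6.13, −35.9 and 14.3 percentage points in the second annotation, 40.5, 34.4, 6.13, −35.9 and 8.95 with its cluster Fibro as myeloid (chosen after seeing the data), and 47.6, 34.7, 12.9, −41.6 and 7.18 with norm3 and norm4 as 1 library. Leaving out each library gave 42.4 to 51.9, 28.4 to 41.4, 10.5 to 14.0, −44.9 to −34.9 and 5.85 to 8.09, none past the threshold, which 2 against 5 libraries pass only with all 6 fractions at the smallest p and 1 against 6 cannot pass. Pooled cells changed no direction.

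Against norm5 alone, with no test, the differences moved to 40.2 (immune), 6.14 (lymphoid), −20.7 (PT), −28.0 (other epithelial), 8.46 (endothelial and stromal), 16.7 (B cell of lymphoid), 7.25 (T cell_1 of T cells), −9.20 (PT of epithelial), −16.5 (PT S1 of PT) and −15.2 (IC of IC and PC). Other epithelial cells per non-immune cell differed by 11.3 instead of −14.2. Macro of myeloid was −23.8 in the second annotation and −32.1 with cells of the same compartment, both without most Mono_1 cells, and T cell_1 of T cells was 11.2 with such cells and −10.3 to 0.608 without single libraries, with 0.608 without IRF3.

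No paired analysis was possible because the cell names carry no replicate numbers of the labels. With 3 counts as the floor, a library of 2967 cells has a floor of 0.101% and the smallest, norm3, one of 0.132%, and shares near or under these rest on few cells.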
